A study of Homo sapiens with 20 samples.

Results

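The gene set described here holds the enzyme and transporter families that handle foreign and endogenous small molecules: cytochromes P450, aldehyde dehydrogenases (ALDH), aldo-keto and carbonyl reductases (AKR, CBR), UDP-glucuronosyltransferases and sulfotransferases (UGT, SULT), glutathione transferases (GST, MGST) and ATP-binding cassette (ABC) transporters. Members were chosen by symbol. A gene belonged to the set when its probe set carried 1 symbol that began with one of these prefixes and the usual family number or letter, and 73 of the 11282 genes measured did so. The rule left out CYP1B1, CYP1A2, ALDH1A3, ALDH3A1, ABCG2 and ABCC9, which belong to the same families by name. The set held 13 CYP, 12 ALDH, 4 AKR, 3 CBR, 1 UGT, 0 SULT, 9 GST, 2 MGST and 29 ABC genes. CYP1A1 was not among the genes measured. Of the 73, 71 are protein coding, and CYP2D7 and CYP4F29P are transcribed pseudogenes.

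The cells were U-87MG, an established human glioblastoma line, exposed for 24 h to 40 µM of a keto acid derived from an aromatic amino acid. Group I3P received indole-3-pyruvic acid, which carries an indole ring. Group PP received phenylpyruvic acid, with a plain phenyl ring, and group HPP received hydroxyphenylpyruvic acid, whose phenyl ring bears a hydroxyl. The control group received the solvent DMSO, at most 0.2% of the medium. Every group held 5 Affymetrix arrays, numbered 1 to 5 and called biological replicates, which gave 20 arrays in all. All are one cell line with no engineered allele, so a result describes this line only. The labels do not say whether the replicates were separate cultures, and the p-values measure the spread between these arrays.

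In the classical scheme of drug metabolism, phase I enzymes such as P450s, aldehyde dehydrogenases and reductases oxidise or reduce a molecule, phase II enzymes such as UGT, SULT and GST attach a polar group, and ABC transporters use ATP to carry products out of the cell. The aryl hydrocarbon receptor (AHR) is a ligand-activated transcription factor that pairs with ARNT and switches on some of these genes, with CYP1A1, CYP1A2 and CYP1B1 as the best known targets, while NRF2 (NFE2L2) drives many GST, AKR and ABCC genes under electrophile stress. Many family members have housekeeping roles instead, in steroid, retinoid, lipid and amino acid metabolism. In brain tumours, ABC transporters are studied for drug efflux and aldehyde dehydrogenases as marks of stem-like cells.

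Values are log2 expression levels from the robust multi-array average (RMA), so a difference of 1 is a fold of 2 in signal. The array medians lay between 9.23 and 9.279. Member means over the 20 arrays ran from 8.12 to 11.73, and 43 of the 73 members lay below the median gene mean of 9.25. Every member was measured by 1 probe set. No probe set in the table had a mean below 7.943, so genes of still lower signal were not tested and dim members may understate a change. CYP2A6 and CYP2A7, GSTM2 and GSTM4, CYP21A2 and its pseudogene, and CYP2D7 and its active relative have close copies, and probes may not tell the copies apart. The glioma and mesenchymal markers in the table, 9 of 12 listed, had means from 8.31 for NES to 13.35 for VIM. GFAP was at 8.57, and SOX2, OLIG2 and S100B were not among the genes in the table. Of the markers of other cell types, 3 of 11 hepatocyte, 4 of 8 epithelial, 3 of 7 neuronal and oligodendrocyte and 3 of 8 blood and endothelial genes were in the table. Among them ALB (10.55), SNAP25 (10.04) and RBFOX3 (9.48) had means above the median gene mean of 9.25, and the rest lay below it. None of the markers of any of these lists passed the test in a comparison of treatments.

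The promoters of 3 members illustrate a search for the recognition sequences of AHR and NRF2. The motifs searched were GCGTG, the core of the AHR response element, and TGACNNNGC, the core of the antioxidant response element that NRF2 binds. Both strands were searched, so a match on the other strand appears as CACGC or GCNNNGTCA, and matches are in capitals. The windows are RefSeq promoters of GRCh38.p14, 300 bases that end 50 bases past the transcription start, written 5′ to 3′ on the gene's strand. ABCA3 (chr16:2340679-2340978, minus strand) is shown because it holds both motifs, 3 of the first and 1 of the second, and a pair of them overlap. GSTA4 (chr6:52995235-52995534, minus strand) holds 1 match to the second motif, and CYP17A1 (chr10:102837364-102837663, minus strand), the member with the largest difference from DMSO, holds none.
ABCA3: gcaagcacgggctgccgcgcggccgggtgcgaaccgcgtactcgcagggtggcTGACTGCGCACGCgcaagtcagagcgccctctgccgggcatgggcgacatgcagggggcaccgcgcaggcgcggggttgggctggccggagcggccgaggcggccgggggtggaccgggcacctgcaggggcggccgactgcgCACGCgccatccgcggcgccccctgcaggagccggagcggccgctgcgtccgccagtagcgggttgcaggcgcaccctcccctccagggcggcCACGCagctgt
GSTA4: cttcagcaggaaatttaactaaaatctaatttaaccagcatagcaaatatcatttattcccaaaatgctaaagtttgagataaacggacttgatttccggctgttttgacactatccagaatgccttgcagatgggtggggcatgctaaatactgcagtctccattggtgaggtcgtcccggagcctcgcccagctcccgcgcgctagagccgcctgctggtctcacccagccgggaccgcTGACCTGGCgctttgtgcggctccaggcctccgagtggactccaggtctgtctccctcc
CYP17A1: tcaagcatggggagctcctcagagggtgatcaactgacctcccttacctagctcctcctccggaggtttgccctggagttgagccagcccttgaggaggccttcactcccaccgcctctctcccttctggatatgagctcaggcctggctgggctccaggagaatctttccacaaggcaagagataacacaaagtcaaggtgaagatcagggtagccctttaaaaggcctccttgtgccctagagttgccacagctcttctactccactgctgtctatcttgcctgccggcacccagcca

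A promoter of this kind was found for 56 of the 73 members. GCGTG lay in the promoter of 29 of these 56 genes (51.8%), against 58.6% of the 9193 measured genes with a promoter and 40.6% of all 27305 genes in the table. TGACNNNGC lay in 16 (28.6%), against 19.9% and 16.1%. Members with and without GCGTG had median differences from DMSO of 0.014 and -0.005 for I3P. For HPP they were -0.008 and 0.032, and for PP both were -0.004. For TGACNNNGC the I3P medians were 0.004 with the motif and 0.019 without it. The HPP medians were 0.008 and 0.013, and those of PP -0.026 and -0.004. A match is only a run of letters in this window, not a bound site.

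For I3P against DMSO, no member passed the test. Differences between group means ran from -0.47 for CYP17A1 to 0.37 for ABCB4, with a median of 0.016 against -0.0001 over all genes. Of the 73 members, 42 (57.5%) lay above 0, against 50% of all genes, and 6 (8.22%) differed by over 0.2, about 1.15-fold, against 9.37%. By limma with Benjamini-Hochberg adjustment over all genes at 0.05, 0 of 73 members were called in either direction, where 0.0798% of all genes were called higher and 0% lower. With the replicate number as a block in the fit, again 0 members were called, against 0.488% of all genes higher and 0.115% lower. Those shares correspond to 0.058 and 0.44 genes in a set of 73, so the count of 0 sits near the background. In bulk RNA a smaller share of expressing cells and less RNA per cell cannot be told apart. At an unadjusted p under 0.05 there was 1 member (ABCB4) without the block, 1.37% against 4.51% of all genes, and 4 members with it, 5.48% against 11%.

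The rule of membership bears directly on that count. The 6 genes it left out include CYP1B1, an AHR target that oxidises steroids and hydrocarbons, which rose with I3P by 0.79 (adjusted p = 0.0339, 0.0001 with the block). ALDH1A3, which makes retinoic acid, was higher by 0.61 and ABCC9, a potassium channel subunit, lower by 0.42, and both passed with the block only (adjusted p = 0.00119 and 0.0384; 0.0973 and 0.851 without it). With the 6 put back, 1 of 79 family genes was called without the block and 3 of 79 (3.8%) with it. The 0 of 73 is therefore a statement about the remaining genes, not about the families as a whole. CYP1A1, a well known AHR target, was not measured and enters neither count.

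HPP and PP gave the same count. For HPP against DMSO 0 of 73 members were called, without the block (0% of all genes in each direction) and with it (0.0443% higher, 0% lower). The median member difference was 0.014, against 0.001 over all genes, with a range of -0.33 to 0.36. Above 0 lay 42 members (57.5%), against 50.6% of all genes. At an unadjusted p under 0.05 there was 1 member without the block (GSTA4), 1.37% against 1.43% of all genes, and 2 with it, 2.74% against 4.97%. For PP against DMSO 0 of 73 were called, where 0% of all genes were called in either direction by either fit. Its median was 0.006, against -0.005 over all genes, and its range -0.37 to 0.29. Above 0 lay 39 members (53.4%), against 47.3% of all genes. By each fit 2 members (2.74%) had an unadjusted p under 0.05, against 1.54% of all genes without the block and 4.25% with it. No member had every array of a compound above or below every DMSO array, against 0.461% of all genes above and 0.372% below for I3P, 0.0709% and 0.062% for HPP, and 0.142% and 0.0709% for PP. With the 6 left-out genes put back, 0 of 79 family genes were called by either fit for HPP and for PP. Those 6 had a median difference of 0.14 with HPP, 4 of them above 0, and -0.06 with PP, 0 of them above 0. For CYP1B1 and ALDH1A3, but not the others, every HPP array lay above the same-numbered DMSO array, and neither passed. All 3 comparisons use the same DMSO arrays, so their values are not independent.

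**Figure D1:**
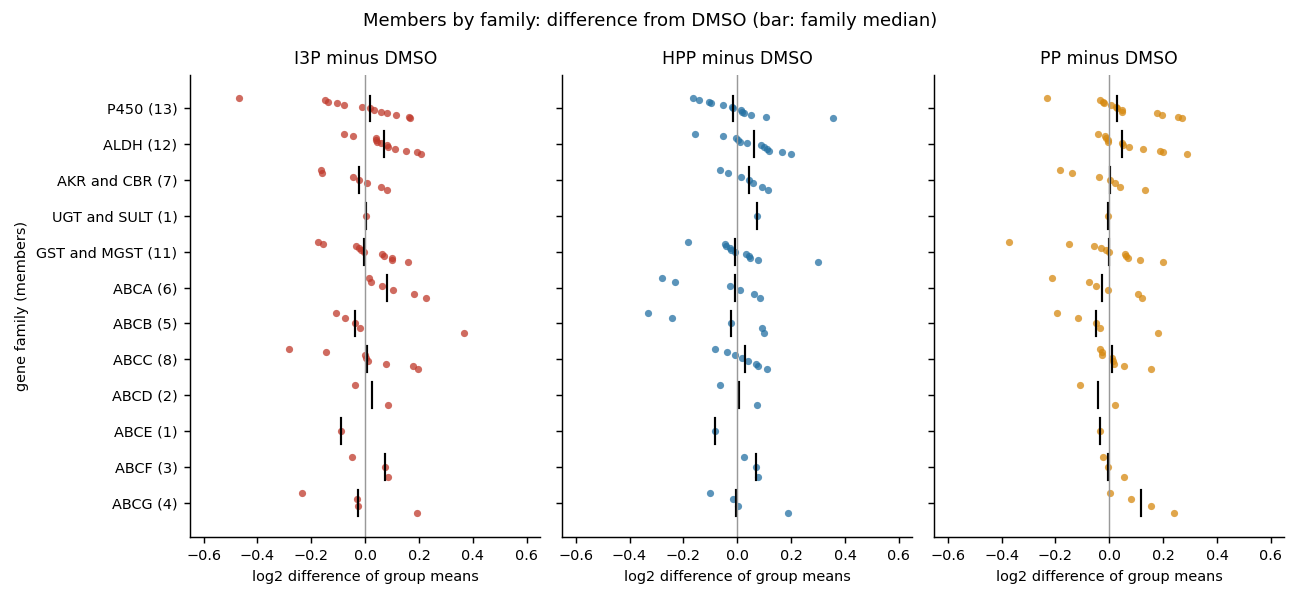
Difference of group means from DMSO (log2, x axis) for each of the 73 members, by family (y axis, number of members in brackets), in a panel for each compound; a point is a gene and the bar is the family median. The points spread around 0 in every panel, between -0.47 and 0.37 for I3P.

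The intervals show how large a change the arrays could have missed. The median standard error of a member's difference was 0.120 without the block and 0.0929 with it, against 0.107 and 0.0789 over all genes. With the block, the 95% interval lay inside 1.5-fold either way (0.585 in log2) for 67 of 73 members for I3P, 67 for HPP and 67 for PP. Without the block the counts were 63, 64 and 61. For I3P the 6 members whose interval reached past 1.5-fold were ABCA9, ABCB4, ABCC12, AKR7A2, CYP17A1 and GSTM3. AKR7A2 had an SD of 0.73 with I3P, where replicate 4 read 8.16 and the other I3P arrays 9.48 to 9.99. Changes under 1.5-fold are not bounded by these counts, and RMA values of dim genes tend to be compressed.

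**Figure D2:**
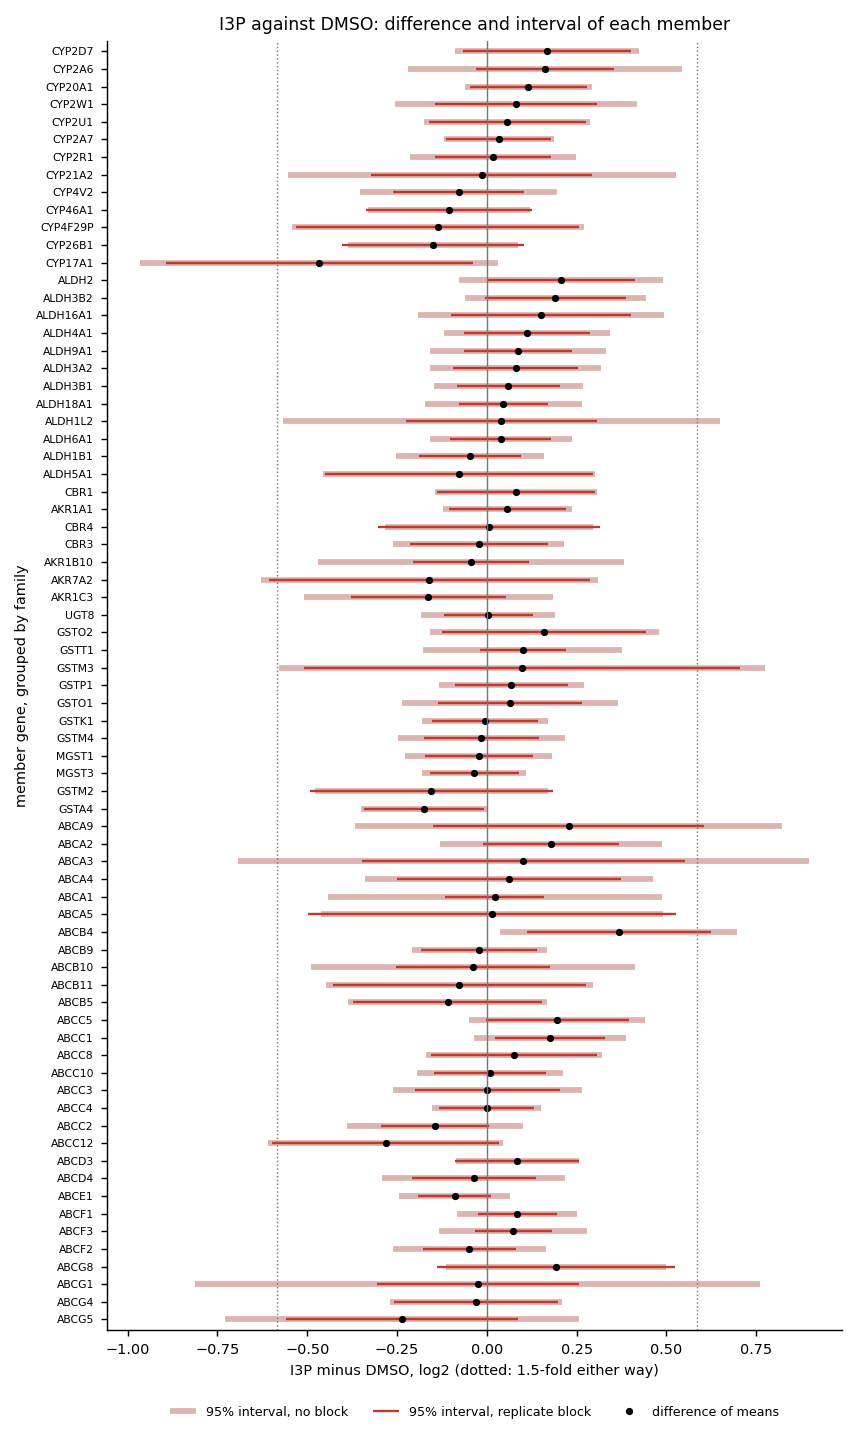
I3P minus DMSO for each member (log2, x axis; members grouped by family on the y axis), with the 95% interval without the block (pale, thick) and with it (dark, thin); dotted lines mark 1.5-fold either way. With the block 67 of 73 intervals lie between the dotted lines.

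Among the P450s, 7 of 13 members lay above 0 with I3P, 6 with HPP and 9 with PP, with family medians of 0.02, -0.02 and 0.03, and 0 were called. CYP17A1, the steroid 17-hydroxylase and lyase of the adrenal gland and gonads, read 8.45, 8.51, 8.23, 8.15 and 7.70 on the DMSO arrays 1 to 5. It read 8.30, 7.46, 7.79, 8.18 and 6.96 with I3P. It read 8.55, 8.14, 8.32, 7.36 and 7.85 with HPP and 8.66, 8.16, 8.67, 8.21 and 8.68 with PP. I3P arrays 2, 3 and 5 were low, and the I3P and DMSO groups overlapped. The I3P mean of 7.74 ± 0.55 stood against 8.21 ± 0.32 with DMSO (SD, n = 5), a difference of -0.47 (limma, adjusted p = 0.999, and 0.406 with the block), which did not pass.

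CYP21A2, the adrenal steroid 21-hydroxylase, had the smallest p for HPP. It read 8.83, 9.18, 9.66, 8.85 and 8.18 with DMSO and 9.61, 9.54, 9.72, 8.61 and 9.01 with HPP. The difference of 0.36 (SE 0.26, or 0.15 with the block) did not pass (limma, adjusted p = 0.944 with the block), and the groups overlapped. CYP26B1, which degrades retinoic acid, differed by -0.15 with I3P, -0.02 with HPP and -0.23 with PP, and none of these passed. CYP2A6, which oxidises nicotine in liver, had group means of 10.06 for DMSO, 10.22 for I3P, 9.92 for HPP and 10.11 for PP.

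In the ALDH family 10 of 12 members lay above 0 with I3P, 9 with HPP and 7 with PP, and 0 were called with any compound. The family medians were 0.07, 0.06 and 0.05. ALDH2, the mitochondrial enzyme that clears acetaldehyde, had the largest difference with I3P. It read 8.58, 8.52, 8.38, 8.76 and 8.82 with DMSO and 8.94, 9.00, 8.30, 8.80 and 9.05 with I3P. With HPP it read 8.66, 8.96, 8.40, 8.97 and 9.07, and with PP 8.81, 8.81, 8.78, 8.91 and 8.70. Against the same DMSO arrays the differences were 0.21, 0.20 and 0.19, with a standard error of 0.14, and 0.098 with the block. None passed (limma with the block, adjusted p = 0.452, 0.989 and 1.0), and array 3 was low with DMSO, I3P and HPP but not with PP. ALDH5A1, which oxidises succinic semialdehyde in the breakdown of GABA, was at 8.25 ± 0.34 with DMSO, 8.17 ± 0.35 with I3P, 8.09 ± 0.38 with HPP and 8.54 ± 0.074 with PP.

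Of the AKR and CBR reductases, 3 of 7 lay above 0 with I3P, 5 with HPP and 4 with PP, and 0 were called. AKR1C3, a reductase of steroids and prostaglandins, had the largest I3P difference of the family at -0.16 (limma, adjusted p = 0.999, and 0.589 with the block). It read 8.76, 8.43, 9.45, 8.69 and 8.85 with DMSO and 8.41, 8.67, 8.90, 8.52 and 8.88 with I3P, so the groups overlapped. AKR1B10, a retinal and aldehyde reductase under NRF2 control, differed by -0.04 with I3P, 0.01 with HPP and 0.002 with PP.

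Conjugating enzymes lay on both sides of 0. UGT8, the only UGT measured, makes the galactolipids of myelin, and its level was 10.25 ± 0.13 with DMSO and 10.26 ± 0.12 with I3P. Of the GST and MGST genes 5 of 11 lay above 0 with each compound. GSTA4, which conjugates lipid aldehydes such as hydroxynonenal and whose promoter is printed above, read 8.55, 8.48, 8.53, 8.34 and 8.46 with DMSO. It read 8.08, 8.32, 8.46, 8.36 and 8.25 with I3P and 8.23, 8.21, 8.33, 8.16 and 8.49 with HPP. Most arrays of both compounds lay below most DMSO arrays, with overlap. The differences were -0.17 with I3P and -0.18 with HPP (SE 0.085, or 0.079 with the block), neither of which passed (limma with the block, adjusted p = 0.437 and 0.945).

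GSTM2, a cytosolic glutathione transferase, had the largest difference of the set with PP. It read 9.35, 9.41, 9.31, 8.85 and 9.05 with DMSO and 9.10, 8.93, 8.53, 8.68 and 8.84 with PP. PP was lower in all 5 same-numbered pairs, which happened for 3.16% of all genes, and the groups overlapped. The difference of -0.37 (SE 0.16) did not pass (limma, adjusted p = 1.0 by both fits). GSTM4, a close relative, differed by -0.15 with PP.

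The 29 ABC genes had 16 members above 0 with I3P, 16 with HPP and 14 with PP, and 0 were called. All 6 ABCA lipid transporters lay above 0 with I3P, with a median of 0.08, against 3 of 6 with HPP and 2 of 6 with PP. The largest was ABCA9 at 0.23 (limma with the block, adjusted p = 0.678). These counts come from genes that share arrays and carry no test.

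ABCB4, the canalicular phosphatidylcholine floppase, had the largest difference above 0 with I3P and the smallest p, although it did not pass. It read 9.34, 9.26, 9.39, 8.84 and 8.73 with DMSO and 9.48, 9.54, 9.45, 9.55 and 9.38 with I3P. All 5 same-numbered pairs were higher with I3P, which held for 5.24% of all genes, and the lowest I3P array fell just below the highest DMSO array. The means were 9.48 ± 0.072 and 9.11 ± 0.31 (SD, n = 5), a difference of 0.37 (SE 0.158) or 1.29-fold. Limma gave an adjusted p of 0.999 without the block and 0.242 with it. With HPP the arrays read 9.25, 9.32, 9.64, 9.10 and 8.73, a difference of 0.10, and with PP the difference was 0.18.

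ABCC1, the multidrug resistance protein that exports glutathione conjugates, read 8.76, 9.00, 8.78, 8.74 and 8.92 with DMSO and 8.92, 9.13, 8.71, 9.21 and 9.10 with I3P. It was higher with I3P in 4 of 5 pairs, by 0.18 (limma, adjusted p = 0.999, and 0.377 with the block), and did not pass. ABCC12, a subfamily member of uncertain transport role, was lower by 0.28 in mean log2 level (10.27 against 10.56; adjusted p = 0.508 by limma with the block). ABCB11, the bile salt export pump of liver, and ABCB5, a transporter studied in melanoma, were at -0.33 and -0.24 with HPP. ABCB9, a lysosomal peptide transporter, was at -0.19 with PP and lower in all 5 pairs. None of these passed.

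In the remaining subfamilies the largest differences with I3P did not pass either. ABCD3, which brings fatty acids into peroxisomes, was at 0.085, and ABCF1, a factor of translation and not a transporter, was at 0.085. ABCG5, which with ABCG8 pumps plant sterols out of liver and gut cells, was at -0.24 (limma with the block, adjusted p = 0.604).

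**Figure D3:**
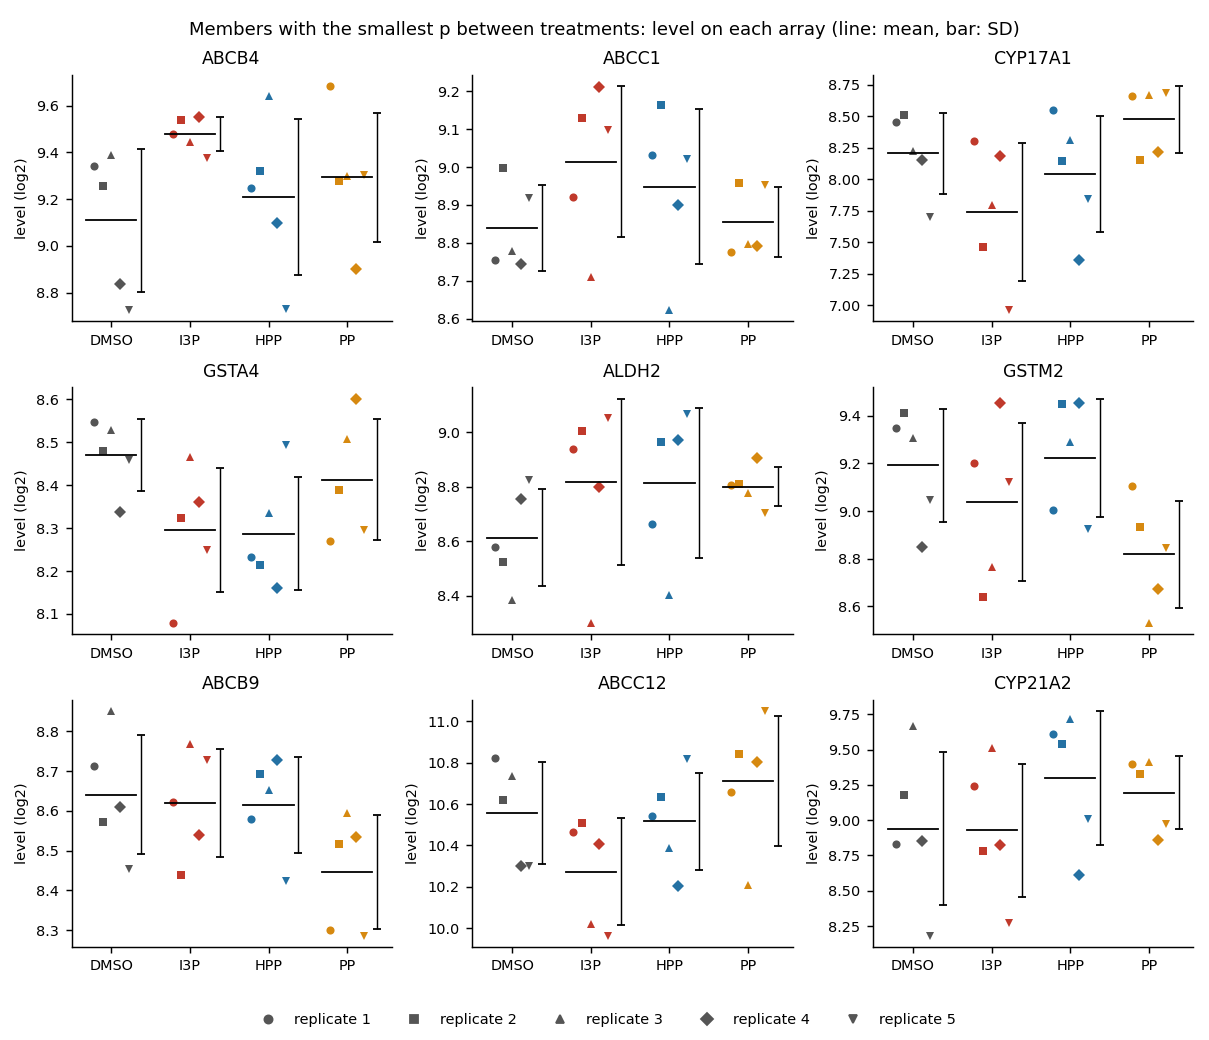
Log2 level (y axis) of members with the smallest p in the treatment comparisons, on each of the 20 arrays, by treatment (x axis); marker shapes are the replicate numbers 1 to 5, the line is the group mean and the bar its SD. In the ABCB4 panel the I3P arrays lie between 9.38 and 9.55, while DMSO spans 8.73 to 9.39.

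The compounds were compared with each other at the same dose and time in 3 pairs, each adjusted over all 11282 genes. I3P and HPP differ by an indole against a hydroxyphenyl ring, I3P and PP by an indole against a phenyl ring, and HPP and PP by a hydroxyl group. In no pair was a member called. For I3P against HPP the count was 0 of 73, where without the block 0% of all genes were called higher and 0% lower, and with it 0.0886% and 0.0266%. For I3P against PP it was 0, against 0.0798% higher and 0.00886% lower without the block and 0.674% and 0.23% with it. For HPP against PP it was 0, against 0% in each direction without the block and 0.0266% higher and 0% lower with it. At an unadjusted p under 0.05 with the block there were 7, 6 and 7 members in the 3 pairs, or 9.59%, 8.22% and 9.59%, against 9.74%, 12.6% and 5.27% of all genes. Without the block there were 0, 2 and 2 members, or 0%, 2.74% and 2.74%, against 3.4%, 5.07% and 1.63%.

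The genes left out by the rule bear on the I3P and PP pair as well. CYP1B1 was higher with I3P than with PP by 0.84 (limma, adjusted p = 0.013, and 5.1e-05 with the block) and ALDH1A3 by 0.67 (adjusted p = 0.0443, and 0.000599 with the block). With the 6 put back, 2 of 79 family genes (2.53%) were called in that pair by either fit, and 0 of 79 in the other pairs. Of the regulators, AHRR was higher with I3P than with PP by 0.60 and passed with the block only (adjusted p = 0.0012, and 0.303 without it).

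The absence of a call does not show that the compounds act alike. With the block, the interval of the difference lay within 1.5-fold for 65 of 73 members for I3P against HPP, 64 for I3P against PP and 68 for HPP against PP. Without the block the counts were 58, 60 and 62.

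CYP17A1, the dimmest member, had the largest difference of any member, between I3P and PP. Its I3P arrays 1 to 5, given above, were all below the same-numbered PP arrays, as was so for 5.65% of all genes, and the highest I3P array, 8.30, exceeded the 2 lowest PP arrays. The mean difference was -0.74 (SE 0.24, or 0.2 with the block, whose 95% interval ran from -1.16 to -0.31). Limma gave an adjusted p of 0.577, and 0.112 with the block. With the block and without I3P replicate 4, the difference was -0.93 and the adjusted p 0.0302, and over all 20 arrays left out in turn it ran from 0.0302 to 0.302. HPP lay between them, at 8.04 ± 0.46, against 7.74 ± 0.55 for I3P and 8.48 ± 0.27 for PP (SD, n = 5).

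ABCC12 followed. It read 10.47, 10.51, 10.02, 10.41 and 9.97 with I3P and 10.66, 10.84, 10.21, 10.80 and 11.05 with PP. I3P was lower in 5 of 5 pairs and the groups overlapped at PP array 3, with a difference of -0.44 (limma, adjusted p = 0.709, and 0.223 with the block). ALDH1B1, a mitochondrial aldehyde dehydrogenase, differed by -0.17, ABCB9 by 0.17 and ABCC1 by 0.16 in the same pair, and none passed.

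Between I3P and HPP the smallest p belonged to CYP2A6. It read 10.17, 10.23, 9.98, 10.28 and 10.45 with I3P and 9.60, 9.62, 9.83, 9.93 and 10.61 with HPP. I3P was higher in 4 of 5 pairs, by 0.31 (SE 0.18, or 0.09 with the block), and the groups overlapped at array 5 (limma with the block, adjusted p = 0.261). ABCC2, the canalicular exporter of conjugated bilirubin, was at -0.22 and lower in 5 of 5 pairs, as held for 5.2% of all genes (adjusted p = 0.318 by limma with the block). GSTT1, a theta-class transferase, was at 0.14, CYP21A2 at -0.37 and AKR1C3 at -0.26. Again none passed.

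Between HPP and PP, the pair that differs by 1 hydroxyl, GSTM2 was at 0.41 and ALDH5A1 at -0.45 (limma with the block, adjusted p = 0.853 and 0.857). ALDH5A1 read 7.45, 8.18, 8.17, 8.46 and 8.21 with HPP and 8.49, 8.64, 8.55, 8.45 and 8.58 with PP. HPP array 1 was the lowest of all, and HPP array 4 lay level with the PP arrays. AKR1C3 was at 0.23, ABCD4, a lysosomal protein of vitamin B12 transport, at 0.18 and ABCB9 at 0.17, and none passed. CYP17A1 was at -0.43 with HPP lower in 5 of 5 pairs, as held for 2.67% of all genes.

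Many members passed the test between replicate numbers, where none did between treatments. In the fit with group and number, limma's moderated F-test across the 5 numbers called 42 of 73 members (57.5%), against 46.5% of all genes. Of a member's variation within groups (its sum of squares), a median of 56.9% went with the number, against 54% over all genes. The highest and lowest number means of a member lay a median of 0.343 apart, against 0.296. These values are somewhat above those of all genes and were not tested against them. The labels do not say what the 4 arrays of a number shared, so a culture, a day of treatment and a round of array processing cannot be told apart.

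**Figure D4:**
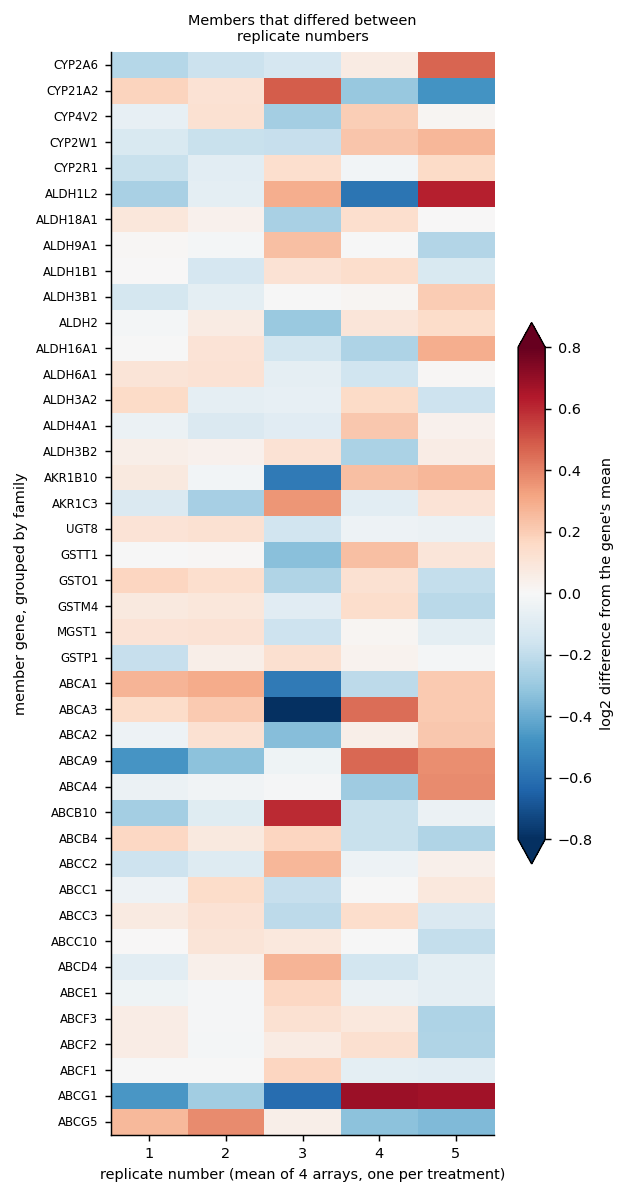
Mean level of each of the 42 members that differed between replicate numbers (y axis, by family), at each number (x axis, mean of 4 arrays), as the log2 difference from the gene's own mean. Colours run from blue (lower) to red (higher) and are capped at 0.8. Number 3 is lowest for 15 of the 42 members and highest for 12.

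The counts by family stand beside the 46.5% of all genes that differed between numbers. Of the aldehyde dehydrogenases 11 of 12 (91.7%) differed, all but ALDH5A1. All 3 ABCF genes, ABCE1 and UGT8 did so, from families of few measured genes. Of the other ABC genes, 5 of 6 ABCA (83.3%), 4 of 8 ABCC (50%) and 2 of 5 ABCB (40%) did so. The counts were 2 of 4 ABCG (50%) and 1 of 2 ABCD genes (50%), and 18 of 29 ABC genes in all (62.1%). They were 5 of 13 for the P450s (38.5%), 5 of 11 for the GST and MGST genes (45.5%) and 2 of 7 for the AKR and CBR reductases (28.6%). Several of these shares lie near that of all genes. Differences between families were not tested.

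Number 3 weighed most on these counts. It was the lowest number for 15 of the 42 members (35.7%) and the highest for 12 (28.6%), against 29.8% and 31.3% of all genes called. Number 5 was lowest for 11 (26.2%) and highest for 10 (23.8%), against 30% and 21.8% of all genes called. Number 4 was lowest for 6 (14.3%) and highest for 11 (26.2%), against 16.1% and 18.6%. Number 1 was lowest for 7 (16.7%) and highest for 2 (4.76%), against 12.9% and 18.2%. Number 2 was lowest for 3 (7.14%) and highest for 7 (16.7%), against 11.2% and 10.1%. Without the 4 arrays of number 3, only 14 of 73 members (against 21.9% of all genes) passed. Without those of number 1, 2, 4 or 5 in turn, 37, 39, 34 and 30 passed, against 42.1%, 45.9%, 38% and 35.5% of all genes.

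ABCA1, which loads cholesterol onto apolipoproteins, had the smallest p between numbers. It read 9.90, 9.91, 9.00, 9.38 and 9.78 on DMSO arrays 1 to 5 and 9.82, 9.77, 9.07, 9.41 and 10.01 with I3P. It read 9.98, 10.05, 9.00, 9.45 and 9.80 with HPP and 9.83, 9.91, 9.13, 9.39 and 9.70 with PP. In every group array 3 was lowest and array 4 next, so the number means were 9.88, 9.91, 9.05, 9.41 and 9.82 (limma F-test, adjusted p = 4.28e-07). The number took up 95.3% of the sum of squares within groups. Against that spread, I3P differed from DMSO by 0.02 with a standard error of 0.22, or 0.065 with the block.

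ABCG1, which exports cholesterol to lipoproteins, followed another order. It read 9.83, 9.95, 9.71, 11.01 and 11.26 with DMSO and 9.71, 10.24, 9.86, 10.68 and 11.15 with I3P. It read 9.89, 9.73, 9.50, 11.22 and 10.93 with HPP and 10.15, 10.40, 9.93, 11.26 and 10.79 with PP. Numbers 4 and 5 lay above the others in all 4 groups without overlap, at means of 11.04 and 11.03 against 9.75 to 10.08 (limma F-test, adjusted p = 3.41e-06). ABCA1 and ABCG1, both cholesterol exporters, thus had different orders over the numbers.

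AKR1B10 was lowest at number 3, with number means of 9.24, 9.13, 8.59, 9.40 and 9.42 (limma F-test, adjusted p = 6.92e-06, and 0.0707 without number 3). Its number 3 arrays read 8.70, 8.59, 8.55 and 8.53 with DMSO, I3P, HPP and PP, below all of its other arrays. ALDH1L2, a mitochondrial enzyme of folate metabolism, had means of 8.49, 8.67, 9.04, 8.16 and 9.37 (adjusted p = 4.24e-05 by the same F-test), a range of 1.21. ABCB10, a mitochondrial transporter tied to haem synthesis, was highest at number 3, with means of 8.48, 8.65, 9.34, 8.57 and 8.70 (adjusted p = 0.00011 by the F-test, and 0.444 without number 3).

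ABCA3, the lipid transporter of lung surfactant whose promoter is printed above, had the widest range between numbers, 1.46. It read 8.36, 8.67, 6.56, 8.79 and 8.69 with DMSO and 8.13, 8.48, 7.82, 8.70 and 8.45 with I3P. It read 8.37, 8.15, 6.56, 8.36 and 8.47 with HPP and 8.41, 8.21, 7.68, 8.63 and 7.89 with PP. Array 3 was lowest in each group, and the DMSO and HPP arrays of number 3 were the lowest values of any member. The limma F-test gave an adjusted p of 0.000854, and 0.269 without number 3. The DMSO mean of 8.21 ± 0.94 (SD, n = 5) rests in large part on that array.

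GSTT1, CYP2A6, ABCF3 and CYP21A2 completed the 10 members with the smallest p between numbers. GSTT1 had number means of 9.40, 9.42, 9.08, 9.65 and 9.50 (limma F-test, adjusted p = 4.35e-05, and 0.0555 without number 3). CYP2A6 had means from 9.85 at number 1 to 10.54 at number 5, and CYP21A2 from 8.61 at number 5 to 9.58 at number 3. ABCF3, which acts in translation control, was lowest at number 5, at 10.45 against 10.69 to 10.82, and its adjusted p of 0.000472 by the F-test became 0.207 without number 5. That of CYP2A6 moved from 0.000228 to 0.0528 without the same arrays.

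**Figure D5:**
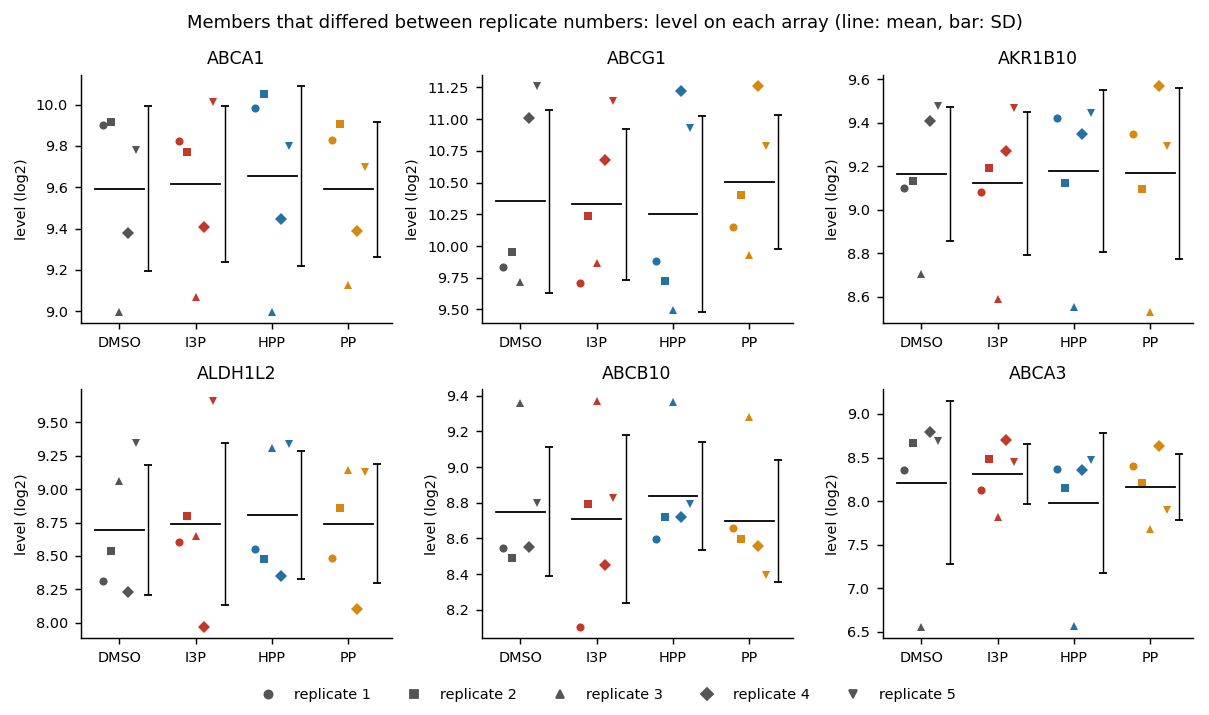
Log2 level (y axis) on each of the 20 arrays of 6 members that differed between replicate numbers, by treatment (x axis); marker shapes are the numbers 1 to 5, the line is the group mean and the bar its SD. The triangles of number 3 are lowest in every group for ABCA1, AKR1B10 and ABCA3 and highest for ABCB10 in DMSO, I3P, HPP and PP.

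The cell type markers gave counts near the same background. By the same F-test 5 of 13 markers of other cell types (38.5%) and 5 of 9 glioma and mesenchymal markers (55.6%) differed between numbers, against 46.5% of all genes. All 3 hepatocyte markers measured (ALB, TF and SERPINA1) were among them, with a list mean from 8.90 at number 1 to 9.65 at number 5. Of the blood and endothelial markers 1 of 3 differed, of the neuronal and oligodendrocyte markers 1 of 3, and of the epithelial markers 0 of 4. The glioma list mean lay between 11.21 and 11.36. Their part in the members' differences was not tested.

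Genes that supply or control these families were examined as 4 further lists. Of the electron suppliers and other phase I enzymes, 20 of 37 were measured and 0 were called with I3P, by either fit. ADH5, the glutathione-dependent formaldehyde dehydrogenase, was at 0.155 and AOX1, aldehyde oxidase, at -0.21 (limma with the block, adjusted p = 0.311 and 0.369). With HPP, NQO1, a quinone reductase driven by NRF2 and AHR, was at 0.23 (adjusted p = 0.827 by limma with the block). Of the other phase II enzymes and cofactor genes, 17 of 24 were measured and 0 called. The list median with I3P was 0.07, with 13 of 17 above 0. GSS, glutathione synthetase, was at 0.14 and GSTCD, named for a GST-like domain, at 0.13.

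Of the uptake carriers 9 of 25 were measured and 0 called. SLC22A4, a carrier of ergothioneine, was nearest, at 9.14 ± 0.16 with I3P against 8.80 ± 0.30 with DMSO (SD, n = 5), a difference of 0.33 (limma with the block, adjusted p = 0.0688), and SLCO4A1, an organic anion carrier, was at -0.27 (adjusted p = 0.273 by the same fit).

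Of the regulators 22 of 29 were measured, and with I3P 0 were called without the block and 1 with it. That gene was AHRR, the repressor that AHR induces. It read 8.55, 8.46, 8.85, 8.56 and 8.59 with DMSO and 9.31, 9.27, 9.55, 9.24 and 9.22 with I3P, with no overlap (limma, difference 0.71, adjusted p = 0.164, and 0.000198 with the block). The receptor itself, AHR, was at -0.08 with I3P, its partner ARNT at -0.04 and NFE2L2 at 0.15, and none of them passed. With HPP and PP, 0 genes of these 4 lists were called by either fit.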

How the data were processed

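RNA was measured on 20 Affymetrix arrays of U-87MG cells, 5 for each of DMSO, I3P, HPP and PP. The deposited log2 values are RMA values that the authors computed with oligo, per the submitters' processing notes (versions not given in the sources used here). RMA subtracts background, equalises the arrays' distributions and combines probes into probe sets. A shift of most genes would therefore not show.

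Of 12770 probe sets, 11316 had a single symbol, which was updated through RefSeq (GRCh38.p14) for 833 and kept for 33 without a match. The probe set with the highest mean was kept for the 33 genes with several, leaving 11282 genes. Of the probe sets left out for carrying several symbols, 6 named a family gene. The number of arrays limits precision. No arrays held identical values.

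Limma 3.58.1 in R 4.3.3 (lmFit and eBayes) estimated the 4 group means from the 20 arrays. Tests were 2-sided, p-values were adjusted over all genes by Benjamini-Hochberg, and the threshold was 0.05. The replicate number was added as a fixed block because same-numbered arrays deviated together from their group means. All 30 such pairs from different groups correlated above 0.1 (0.163 to 0.714), and 19 of 20 arrays correlated best with their own number. The 120 pairs of different number had a median of -0.157. Deviations cancel within a group, so this negative median follows in part from the positive values and is no separate sign of pairing. The block keeps each difference and changes its error. The fits were tested on simulated data. Plots used Python 3.11.15 and matplotlib 3.10.9.

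Named are the members called, or else up to 5 with the smallest p with the block in each comparison, the 10 with the smallest p between numbers, the largest I3P difference of each family, and of each other list the genes called (up to 3) or else 2 with the smallest p, with AHR, ARNT and NFE2L2 always. The members and lists were chosen with earlier results of these data known. Members singled out beyond that are values read beside them.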

Additional observations from a re-analysis of the deposited data

Results flagged for a closer look

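Of 128 groups of 5 arrays examined, 32 named members in 4 treatments, 6 held an array set apart from the other 4 by more than Dixon's 95% critical value of 0.71 of the group's range. For independent arrays and genes not chosen by their values, chance flags about 1 group in 20. These genes were chosen in part for their differences between numbers, and same-numbered arrays deviated together, so that rate is no fair yardstick here. ABCA3, ABCB10, ABCF1 and ABCF3 passed the F-test between numbers, and ABCD3 did not. Whether the flagged arrays exceed chance was not tested. Both ABCA3 values came from number 3. ABCA3 read 6.56 on DMSO replicate 3, where the other DMSO arrays lay between 8.36 and 8.79. It read 6.56 on HPP replicate 3, against 8.15 to 8.47. ABCB10 read 9.36 on HPP replicate 3, against 8.60 to 8.79, and ABCF1 read 10.44 on I3P replicate 3, against 10.19 to 10.26. ABCD3 read 9.51 on I3P replicate 1, against 9.39 to 9.41, a gap of under 0.2 in log2. ABCF3 read 10.34 on DMSO replicate 5, against 10.70 to 10.77. Members outside the 32 were not examined in this way, and some of them also held an array set far apart. GSTM3 read 9.64 on PP replicate 5, against 7.88 to 8.07, and 9.58 on HPP replicate 2, against 8.05 to 8.35. AKR7A2 read 8.16 on I3P replicate 4, against 9.48 to 9.99.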

How the results depend on the processing

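The count of called members was 0 in each of the 6 comparisons with the replicate number as a block, as without it, and 0 in all 168 alternatives without the fixed block. These were a random block (consensus correlation 0.401), the 10 arrays compared alone, equal array medians, cyclic loess, all probe sets, genes brighter than the median alone, the mean over probe sets, a trended and robust prior, and each array left out in turn. With the block it was 0 in 161 of 162, and the exception was 1 member, CYP17A1, for I3P against PP without I3P replicate 4, so that leaving out 1 array gave 0 to 1. The median member difference kept its value within the spread of the same-numbered pairs in every alternative run, and with 1 array left out it ran from 0.00981 to 0.0444 for I3P, 0.000863 to 0.0292 for HPP and -0.00256 to 0.0377 for PP. The count of members that differed between numbers was 33 to 42 with 1 array left out, 21 of the 30 members above the median level (56.6% of all such genes), and 14 without the 4 arrays of number 3, an alternative chosen after seeing the data. UGT8 with I3P, at 0.004, changed sign with equal array medians (-0.00111) and with 1 array left out (-0.0476 to 0.0436), values all close to 0. Limma's adjusted p for ABCB4, I3P against DMSO, ran from 0.242 to 1.0, and that for CYP17A1, I3P against PP, from 0.109 to 0.999. These ranges cover the main fit, the block on all arrays and the alternatives without the fixed block. With the block and 1 array left out, they ran from 0.173 to 0.503 and 0.0302 to 0.302. The other alternatives with the block were read for counts only. Depth does not apply to arrays; low signal limits the dim members.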
